A study of Drosophila melanogaster with 36 samples.

Results

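The sarcomere genes described here were 32 genes of the contractile apparatus of striated muscle: actins, myosin light and heavy chains, tropomyosins, troponins and the proteins of the Z disc, the M line and the filament ends. They were chosen by name, from current symbols or synonyms, and each was read from the probe set that names that gene alone and had the highest mean over all 36 arrays. Of the 32 genes, 26 had such a probe set, among 11982 genes with one and 18769 fly probe sets in all. Act57B, Mhc, Tm1, TpnC25D, TpnC47D and wupA had no probe set that names them alone and were not analysed here.

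A sarcomere shortens when thick filaments of myosin pull on thin filaments of actin. Calcium starts this by binding troponin C, which shifts the position of tropomyosin on the thin filament. Thin filaments are anchored in the Z disc, and the titin-like proteins of the fly, such as projectin and kettin, join the Z disc to the thick filament. Adult flies hold fibrillar flight muscle and tubular muscle of the legs, jump muscle and abdomen, and several actins and troponins C are made mainly in one of these muscles.

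The study compared whole adult male flies that expressed human SOD1 carrying the ALS-linked G85R change (G85R) with control flies that expressed wild-type Drosophila SOD1 (dSOD1), both from UAS transgenes. The transgene was driven in motoneurons by D42-Gal4 (MN), in glia by M1B-Gal4 (glia) or in both by the 2 drivers together (MN+glia), and flies were aged to 45 days (45d) or 5 days (5d). Each of the 12 groups formed by driver, transgene and age had 3 arrays, each from a separate pool of 40 flies. All groups carried a driver and a SOD1 transgene, G85R and dSOD1 differ both in the species of the protein and in the mutation, and activity of the drivers in muscle was not tested.

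All values are log2 intensities after RMA, so that a difference of 1 is a 2-fold difference, and levels of different genes cannot be set against each other. Array medians ran from 6.41 to 6.55. One array, MN+glia G85R 5d replicate 2, had a 3′ minus 5′ difference of 5.72 between the actin control probe sets, against 2.39 to 3.25 on the other 35 arrays, and was left out of every test. The 26 measured members averaged between 8.40 and 13.52 over the 35 arrays, and the median SD of a member within a group was 0.0671. The probe sets of Act87E, Mlp84B, sals, Tm2 and tmod carry the suffix for probes that can detect related transcripts, so their values may include those of related genes.

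The first question was how the sarcomere genes differed between 45d and 5d flies. Most of them were lower at 45d in every group: 16 of the 26 members fell in all 6 comparisons of 45d with 5d, which share no arrays with each other, against 10.1% of all probe sets. Those 16 were Act79B, Act87E, Actn, fln, Mf, Mlc1, Mlp84B, Prm, sls, Tm2, tmod, TpnC4, TpnC41C, Unc-89, Zasp52 and Zasp66. The members averaged 8.40 or more, whereas array medians over all probe sets ran from 6.41 to 6.55. The shares of all probe sets given here and below are therefore not matched to the members for level. In whole flies, fewer muscle cells and less of an mRNA per cell cannot be told apart.

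In MN flies, 18 members fell and 6 rose with G85R, where 18.3% of all probe sets fell and 23.2% rose, and 19 fell and 1 rose with dSOD1, where 20% fell and 27.4% rose. In glia flies, 17 members fell and 1 rose with G85R (15.9% of all probe sets fell and 21% rose), and 23 fell and 1 rose with dSOD1 (18.8% fell and 23.6% rose). In MN+glia flies, 20 members fell and none rose with G85R (14.5% fell and 16.5% rose), and 21 fell and 1 rose with dSOD1 (18.3% fell and 22.1% rose). Across the 6 comparisons the members' median difference lay between -0.67, in glia dSOD1 flies, and -0.31, in MN G85R flies, while the median over all probe sets lay between -0.0146 and 0.0279. A call is an adjusted p of at most 0.05 in limma (Benjamini-Hochberg over all 18769 probe sets), and the count of 0 rises in MN+glia G85R flies also held at an unadjusted p below 0.05. No share of all probe sets is given at an unadjusted p, so counts at that threshold cannot be set against the shares of calls.

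**Figure D1:**
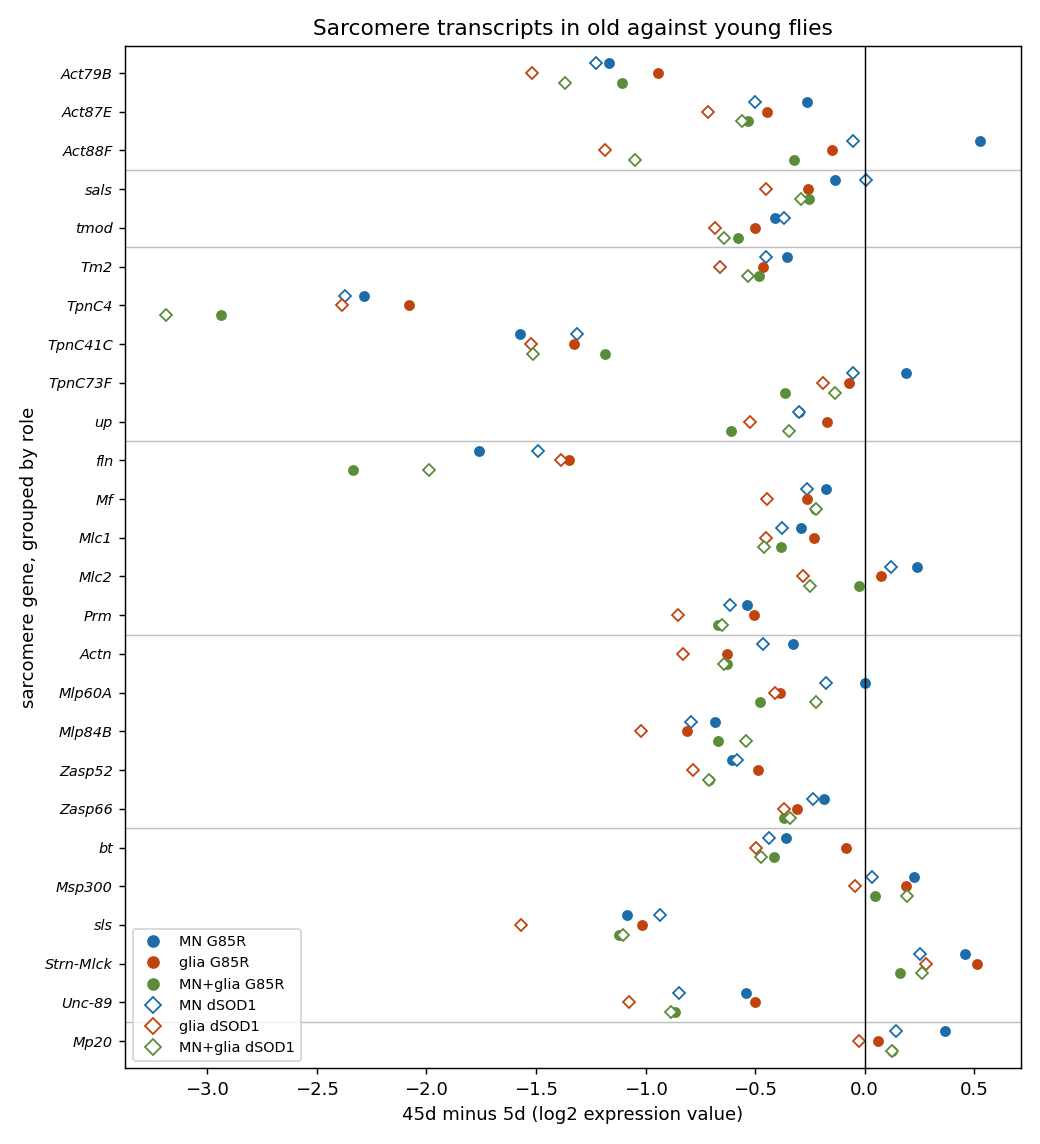
Differences between 45d and 5d (log2, horizontal axis) of the 26 measured sarcomere genes, one line of points per gene and grouped by role, with a point for each driver and transgene. TpnC4 lies farthest to the left, between -3.19 and -2.08, and Strn-Mlck, Mp20 and Msp300 have no called fall on the probe sets plotted.

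TpnC4, the troponin C of the asynchronous flight muscle, fell most of all members in each comparison and was lower in every 45d array than in any 5d array. TpnC4 in MN flies read 9.47, 9.46 and 9.28 with G85R and 9.19, 9.30 and 9.07 with dSOD1 at 45d, against 11.75, 11.84 and 11.48 with G85R and 11.58, 11.52 and 11.57 with dSOD1 at 5d. TpnC4 in glia flies read 9.87, 10.09 and 9.77 with G85R and 9.53, 9.47 and 9.61 with dSOD1 at 45d, against 12.04, 11.96 and 11.97 with G85R and 12.04, 11.97 and 11.77 with dSOD1 at 5d. TpnC4 in MN+glia flies read 9.30, 9.02 and 9.04 with G85R and 8.99, 8.94 and 8.79 with dSOD1 at 45d, against 12.10 and 12.02 with G85R and 12.11, 12.08 and 12.11 with dSOD1 at 5d. Its difference was -2.28 ± 0.09 (SE) with G85R and -2.37 ± 0.09 with dSOD1 in MN flies, -2.08 ± 0.09 with G85R and -2.39 ± 0.09 with dSOD1 in glia flies, and -2.94 ± 0.10 with G85R and -3.19 ± 0.09 with dSOD1 in MN+glia flies, or between 4.22-fold and 9.11-fold lower (limma, largest adjusted p = 4.8e-17).

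TpnC41C, a second muscle troponin C, also fell in all 6 comparisons. TpnC41C in MN flies read 9.78, 9.78 and 9.68 with G85R and 10.01, 10.17 and 9.94 with dSOD1 at 45d, against 11.35, 11.45 and 11.17 with G85R and 11.32, 11.37 and 11.38 with dSOD1 at 5d. TpnC41C in glia flies read 9.94, 10.02 and 9.97 with G85R and 9.80, 9.77 and 9.93 with dSOD1 at 45d, against 11.34, 11.24 and 11.34 with G85R and 11.50, 11.36 and 11.21 with dSOD1 at 5d. TpnC41C in MN+glia flies read 10.23, 10.13 and 10.13 with G85R and 10.06, 10.04 and 10.07 with dSOD1 at 45d, against 11.36 and 11.34 with G85R and 11.51, 11.52 and 11.68 with dSOD1 at 5d. These values put TpnC41C between 2.27-fold and 2.98-fold lower at 45d, with no overlap between the ages (limma, largest adjusted p = 1.2e-12). TpnC73F, also a troponin C, fell in glia dSOD1 flies (-0.19, adjusted p = 0.020) and in MN+glia G85R flies (-0.36, adjusted p = 0.00023) and rose in MN G85R flies (0.19, adjusted p = 0.021). The calls of TpnC73F in glia dSOD1 and MN G85R flies did not stand without single arrays: glia dSOD1 5d or 45d replicate 3, and MN G85R 5d or 45d replicate 2.

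On the thick filament, flightin (fln), which binds myosin in flight muscle and is needed for its thick filaments, had the second largest fall on the probe sets used in 5 of the 6 comparisons, the exception being glia dSOD1 flies. fln in MN flies read 9.45, 9.34 and 9.35 with G85R and 9.84, 9.94 and 9.67 with dSOD1 at 45d, against 11.13, 11.26 and 11.03 with G85R and 11.30, 11.29 and 11.33 with dSOD1 at 5d. fln in glia flies read 9.67, 10.18 and 9.71 with G85R and 9.84, 9.84 and 9.87 with dSOD1 at 45d, against 11.19, 11.23 and 11.20 with G85R and 11.37, 11.30 and 11.03 with dSOD1 at 5d. fln in MN+glia flies read 9.04, 9.17 and 8.52 with G85R and 9.42, 9.59 and 9.44 with dSOD1 at 45d, against 11.29 and 11.20 with G85R and 11.58, 11.36 and 11.47 with dSOD1 at 5d. No 45d array reached a 5d array, and the fall was between 2.55-fold, in glia G85R flies, and 5.05-fold, in MN+glia G85R flies (limma, largest adjusted p = 4.7e-10).

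On the probe sets used, other thick filament proteins moved less. Paramyosin (Prm), a core protein of invertebrate thick filaments, fell by between 0.50 and 0.85 on the log2 scale, and myofilin (Mf), another thick filament protein, by between 0.18 and 0.45 at the probe set used, with larger falls at a second one given below. Both were called in all 6 comparisons. The essential myosin light chain Mlc1 was also lower in every group at 45d. Mlc1 in MN flies read 12.52, 12.53 and 12.49 with G85R and 12.51, 12.60 and 12.42 with dSOD1 at 45d, against 12.83, 12.83 and 12.76 with G85R and 12.87, 12.88 and 12.91 with dSOD1 at 5d. Mlc1 in glia flies read 12.64, 12.65 and 12.62 with G85R and 12.44, 12.45 and 12.49 with dSOD1 at 45d, against 12.81, 12.89 and 12.90 with G85R and 12.91, 12.91 and 12.92 with dSOD1 at 5d. Mlc1 in MN+glia flies read 12.59, 12.60 and 12.55 with G85R and 12.47, 12.53 and 12.48 with dSOD1 at 45d, against 12.96 and 12.96 with G85R and 13.04, 12.88 and 12.92 with dSOD1 at 5d. Its differences lay between -0.46 and -0.23 (limma, largest adjusted p = 0.00021).

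The regulatory myosin light chain Mlc2 did not follow Mlc1. Mlc2 in MN flies read 11.94, 11.78 and 11.81 with G85R and 11.73, 11.71 and 11.61 with dSOD1 at 45d, against 11.57, 11.67 and 11.58 with G85R and 11.51, 11.59 and 11.59 with dSOD1 at 5d. Mlc2 in glia flies read 11.60, 11.61 and 11.70 with G85R and 11.45, 11.46 and 11.34 with dSOD1 at 45d, against 11.42, 11.60 and 11.67 with G85R and 11.69, 11.68 and 11.71 with dSOD1 at 5d. Mlc2 in MN+glia flies read 11.99, 11.85 and 11.80 with G85R and 11.65, 11.68 and 11.49 with dSOD1 at 45d, against 11.95 and 11.87 with G85R and 11.88, 11.86 and 11.82 with dSOD1 at 5d. Mlc2 fell in glia dSOD1 flies (-0.28, adjusted p = 0.00056) and in MN+glia dSOD1 flies (-0.25, adjusted p = 0.0022), rose in MN G85R flies (0.24, adjusted p = 0.0029), and was not called in the other 3 comparisons, where its differences were -0.03, 0.07 and 0.12.

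The 3 measured actins differed from each other. Act79B, the actin of tubular leg and jump muscle, fell in all 6 comparisons. Act79B in MN flies read 11.53, 11.53 and 11.46 with G85R and 11.43, 11.50 and 11.47 with dSOD1 at 45d, against 12.56, 12.76 and 12.70 with G85R and 12.68, 12.73 and 12.68 with dSOD1 at 5d. Act79B in glia flies read 11.74, 11.75 and 11.81 with G85R and 11.41, 11.44 and 11.40 with dSOD1 at 45d, against 12.61, 12.75 and 12.78 with G85R and 12.93, 12.92 and 12.96 with dSOD1 at 5d. Act79B in MN+glia flies read 11.68, 11.58 and 11.59 with G85R and 11.44, 11.57 and 11.48 with dSOD1 at 45d, against 12.77 and 12.68 with G85R and 13.01, 12.79 and 12.80 with dSOD1 at 5d. All 45d arrays were below all 5d arrays, by between 1.93-fold, in glia G85R flies, and 2.87-fold, in glia dSOD1 flies (limma, largest adjusted p = 2.5e-13).

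Act87E, a larval and adult muscle actin, fell by less. Act87E in MN flies read 11.34, 11.31 and 11.30 with G85R and 11.22, 11.26 and 11.11 with dSOD1 at 45d, against 11.57, 11.54 and 11.63 with G85R and 11.67, 11.68 and 11.74 with dSOD1 at 5d. Act87E in glia flies read 11.24, 11.20 and 11.27 with G85R and 11.14, 11.13 and 11.08 with dSOD1 at 45d, against 11.55, 11.76 and 11.73 with G85R and 11.81, 11.78 and 11.90 with dSOD1 at 5d. Act87E in MN+glia flies read 11.37, 11.37 and 11.22 with G85R and 11.29, 11.31 and 11.27 with dSOD1 at 45d, against 11.86 and 11.84 with G85R and 11.87, 11.81 and 11.87 with dSOD1 at 5d. Its differences ran from -0.72 in glia dSOD1 flies to -0.26 in MN G85R flies, all called (limma, largest adjusted p = 0.00019).

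Act88F, the actin of flight muscle, changed in different directions in different groups. Act88F in MN flies read 9.80, 9.76 and 9.73 with G85R and 9.50, 9.48 and 9.22 with dSOD1 at 45d, against 9.06, 9.65 and 9.00 with G85R and 9.31, 9.40 and 9.66 with dSOD1 at 5d. Act88F in glia flies read 9.43, 10.52 and 9.44 with G85R and 8.77, 8.94 and 8.73 with dSOD1 at 45d, against 9.91, 10.08 and 9.84 with G85R and 10.18, 10.01 and 9.82 with dSOD1 at 5d. Act88F in MN+glia flies read 9.65, 9.50 and 9.58 with G85R and 9.15, 9.10 and 9.10 with dSOD1 at 45d, against 9.98 and 9.81 with G85R and 10.53, 9.98 and 9.99 with dSOD1 at 5d. Act88F fell in glia dSOD1 flies (-1.19 ± 0.19 SE, adjusted p = 5.0e-06) and in MN+glia dSOD1 flies (-1.05 ± 0.19, adjusted p = 3.2e-05) and rose in MN G85R flies (0.53 ± 0.19, adjusted p = 0.025). It was not called in MN dSOD1 flies (-0.05, adjusted p = 0.85), glia G85R flies (-0.15, adjusted p = 0.59) or MN+glia G85R flies (-0.32, adjusted p = 0.28). Its replicates spread more than those of any other member, with an SD of 0.624 in glia G85R flies at 45d, where replicate 2 read 10.52 and the others 9.43 and 9.44. Its rise in MN G85R flies was not called without 5d replicate 1 or 3 or without 45d replicate 1 or 2.

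**Figure D2:**
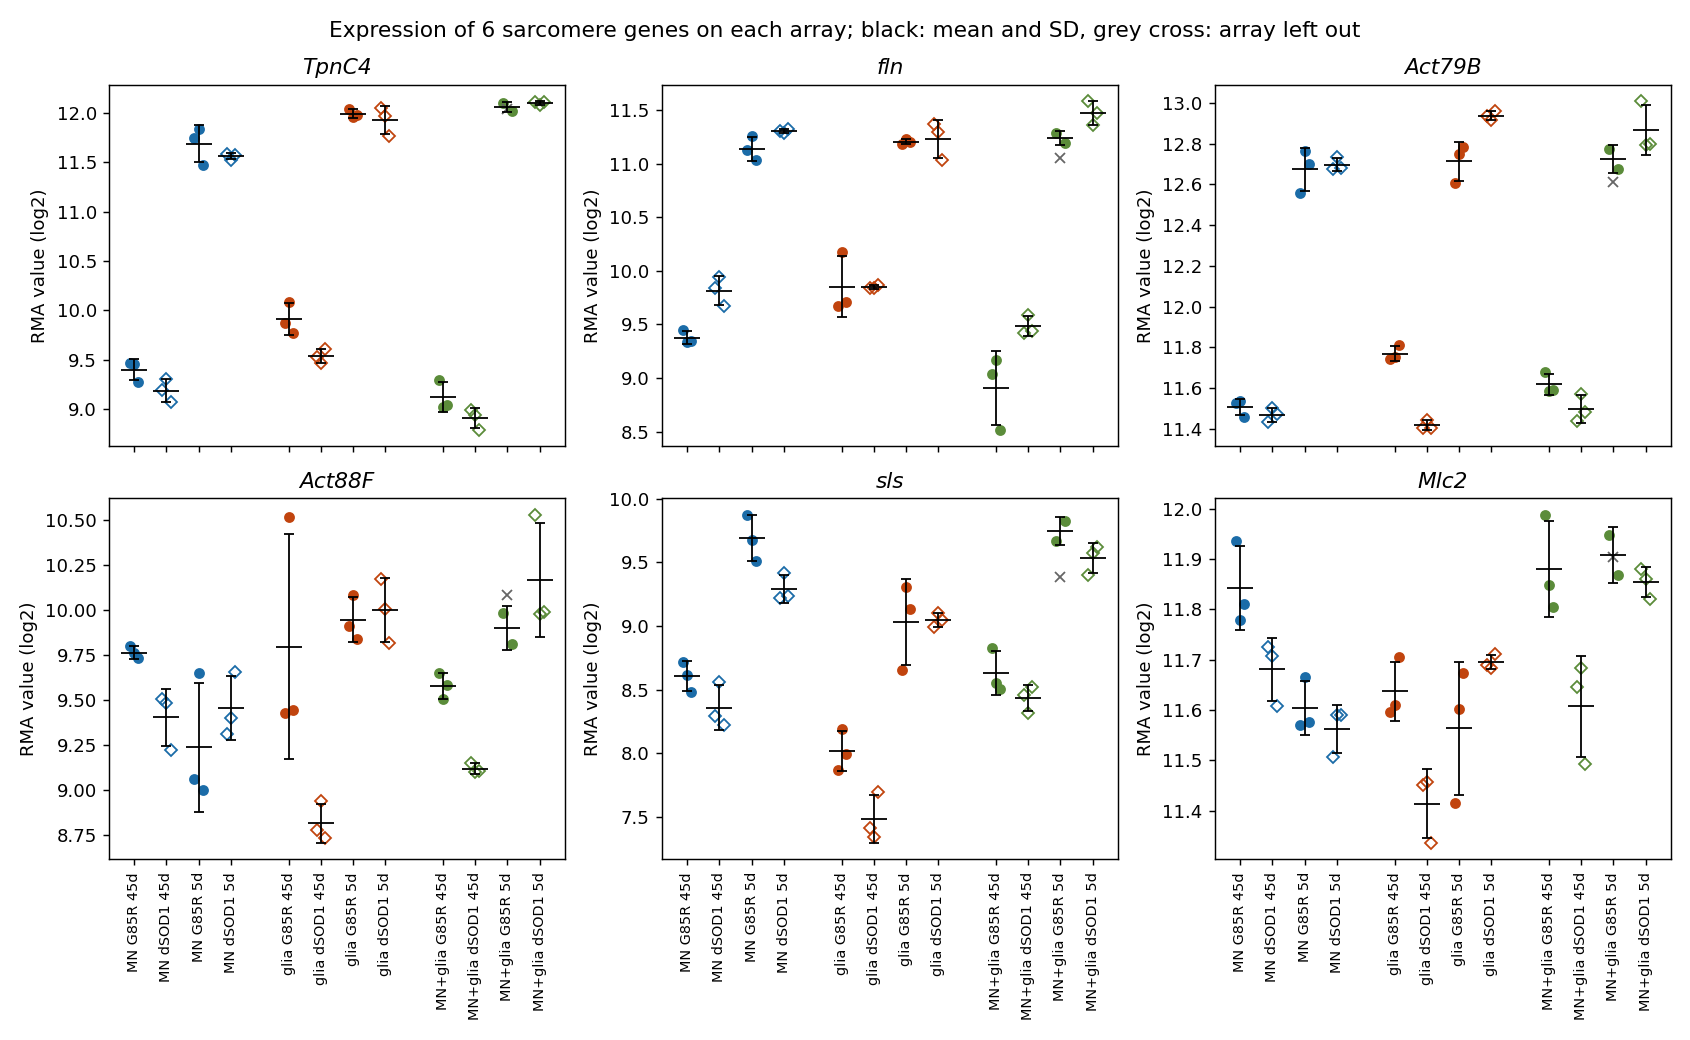
Log2 intensity of TpnC4, fln, Act79B, Act88F, sls and Mlc2 on every array, one point per array, with the mean and SD of each group in black and the array left out as a grey cross. The 45d arrays of TpnC4, fln and Act79B lie below the 5d arrays in every group, whereas those of Act88F and Mlc2 overlap with the 5d arrays in some groups.

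Among the regulatory proteins of the thin filament, tropomyosin 2 (Tm2) fell in every group. Tm2 in MN flies read 10.87, 10.78 and 10.88 with G85R and 10.77, 10.87 and 10.71 with dSOD1 at 45d, against 11.21, 11.19 and 11.19 with G85R and 11.22, 11.28 and 11.19 with dSOD1 at 5d. Tm2 in glia flies read 10.68, 10.62 and 10.68 with G85R and 10.51, 10.55 and 10.57 with dSOD1 at 45d, against 11.05, 11.17 and 11.15 with G85R and 11.24, 11.21 and 11.16 with dSOD1 at 5d. Tm2 in MN+glia flies read 11.11, 10.93 and 10.89 with G85R and 10.92, 10.88 and 10.87 with dSOD1 at 45d, against 11.46 and 11.46 with G85R and 11.41, 11.45 and 11.41 with dSOD1 at 5d. These were differences between -0.66 and -0.36 (limma, largest adjusted p = 1.5e-06).

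Troponin T, encoded by upheld (up), links troponin to tropomyosin. The up probe set in MN flies read 10.18, 10.19 and 10.29 with G85R and 10.27, 10.28 and 10.14 with dSOD1 at 45d, against 10.56, 10.50 and 10.50 with G85R and 10.51, 10.51 and 10.56 with dSOD1 at 5d. The up probe set in glia flies read 10.35, 10.24 and 10.54 with G85R and 9.95, 10.25 and 10.25 with dSOD1 at 45d, against 10.47, 10.62 and 10.56 with G85R and 10.68, 10.62 and 10.71 with dSOD1 at 5d. The up probe set in MN+glia flies read 10.53, 10.35 and 10.24 with G85R and 10.46, 10.48 and 10.36 with dSOD1 at 45d, against 10.95 and 11.02 with G85R and 10.81, 10.68 and 10.85 with dSOD1 at 5d. It fell in 5 of the 6 comparisons, by between 0.30 and 0.61 on the log2 scale, and was not called in glia G85R flies (-0.17, adjusted p = 0.093). At the pointed end of the thin filament, tropomodulin (tmod), which caps it, fell in all 6 by between 0.37 and 0.68, while sals, which lengthens thin filaments, passed the test only in glia dSOD1 flies (-0.45, adjusted p = 0.0040).

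All 5 measured Z disc proteins were lower at 45d in most groups. The muscle LIM protein Mlp84B fell by between 0.54 and 1.02 on the log2 scale, the actin cross-linker alpha-actinin (Actn) by between 0.33 and 0.83, and the PDZ-domain proteins Zasp52 and Zasp66 by between 0.49 and 0.78 and between 0.19 and 0.37. Mlp60A, a second muscle LIM protein, fell in 5 comparisons by between 0.18 and 0.48 and had a difference of 0.0017 in MN G85R flies (adjusted p = 0.98). Averaged over all its probe sets, Mlp60A was higher at 45d in 3 groups where this probe set fell: by 0.085 in MN dSOD1 flies, 0.0031 in glia G85R flies and 0.25 in MN+glia dSOD1 flies.

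Of the giant proteins on the probe sets used, sls (Sallimus, also known as kettin), which ties the Z disc to the thick filament, fell most. Other probe sets of sls and Strn-Mlck gave other values, which are given below. sls in MN flies read 8.72, 8.62 and 8.48 with G85R and 8.29, 8.56 and 8.22 with dSOD1 at 45d, against 9.88, 9.68 and 9.51 with G85R and 9.22, 9.42 and 9.24 with dSOD1 at 5d. sls in glia flies read 7.87, 8.19 and 7.99 with G85R and 7.41, 7.34 and 7.69 with dSOD1 at 45d, against 8.65, 9.31 and 9.13 with G85R and 8.99, 9.10 and 9.05 with dSOD1 at 5d. sls in MN+glia flies read 8.82, 8.55 and 8.50 with G85R and 8.46, 8.32 and 8.52 with dSOD1 at 45d, against 9.67 and 9.82 with G85R and 9.40, 9.57 and 9.62 with dSOD1 at 5d. It was between 1.91-fold and 2.96-fold lower (limma, largest adjusted p = 4.2e-07). Unc-89 (now Obsc), the obscurin of the M line, fell by between 0.50 and 1.07 in all 6 comparisons, and projectin (bt) by between 0.36 and 0.50 in 5, with -0.08 in glia G85R flies (adjusted p = 0.52).

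Strn-Mlck, Mp20 and Msp300 were never called lower on the probe sets used. Strn-Mlck, which encodes titin-like proteins and a myosin light chain kinase, rose in 5 comparisons by between 0.25 and 0.51 and read 0.16 higher in MN+glia G85R flies (adjusted p = 0.20). Mp20, a calponin-like muscle protein, rose only in MN G85R flies, with 11.87, 12.07 and 11.99 at 45d against 11.53, 11.59 and 11.70 at 5d (0.37, adjusted p = 5.1e-05). Msp300, the nesprin that positions muscle nuclei, rose at its brightest probe set only there (0.23, adjusted p = 0.025). Strn-Mlck in the same flies read 9.82, 9.61 and 9.81 at 45d against 9.10, 9.35 and 9.42 at 5d. The rise of Strn-Mlck was lost in MN dSOD1 flies without 5d replicate 1 or 45d replicate 2 and in MN+glia dSOD1 flies without replicate 2 of either age, and that of Msp300 without MN G85R 5d replicate 1 or 2 or 45d replicate 1 or 3.

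Other probe sets of some members gave other values. Strn-Mlck, Mf and sls were singled out after their values were seen, because their probe sets differed most clearly, and Msp300 was added for the same reason. In all 6 comparisons a second probe set of Strn-Mlck fell, with differences between -2.71 and -1.01, while the one used above was higher at 45d. In glia dSOD1 flies the second read 8.05, 7.96 and 7.91 at 45d against 9.95, 9.97 and 9.72 at 5d (limma, adjusted p = 1.5e-13). This second probe set was the brighter in every 5d group and the dimmer in every 45d group. In glia dSOD1 flies at 5d its mean was 9.88, against 9.49 for the one used. A second probe set of Mf, read at 12.20, 12.19 and 12.13 at 45d against 14.04, 14.01 and 13.99 at 5d in glia dSOD1 flies, fell by between 1.52 and 1.84 in the 6 comparisons, compared with 0.18 to 0.45 for the one used above. It too was the brighter in every 5d group and the dimmer in every 45d group. In glia dSOD1 flies at 5d its mean was 14.01, against 13.65 for the one used. For Strn-Mlck and Mf the choice by highest mean over all arrays therefore depended on the fall with age itself. In MN G85R flies, where the Msp300 probe set used above rose, a dimmer one fell (-0.28, adjusted p = 0.020). That probe set also fell in the dSOD1 flies of all 3 drivers, by between 0.25 and 0.53, and in MN+glia G85R flies (-0.46, adjusted p = 0.0013). For sls, a second probe set fell by between 0.82 and 1.41, whereas the third had differences between 0.03 and 0.58, all positive. Averaged over its probe sets, Strn-Mlck had negative differences in all 5 comparisons where the one used above rose, down to -0.74 in MN+glia dSOD1 flies. Which transcripts each probe set detects was not examined.

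**Figure D3:**
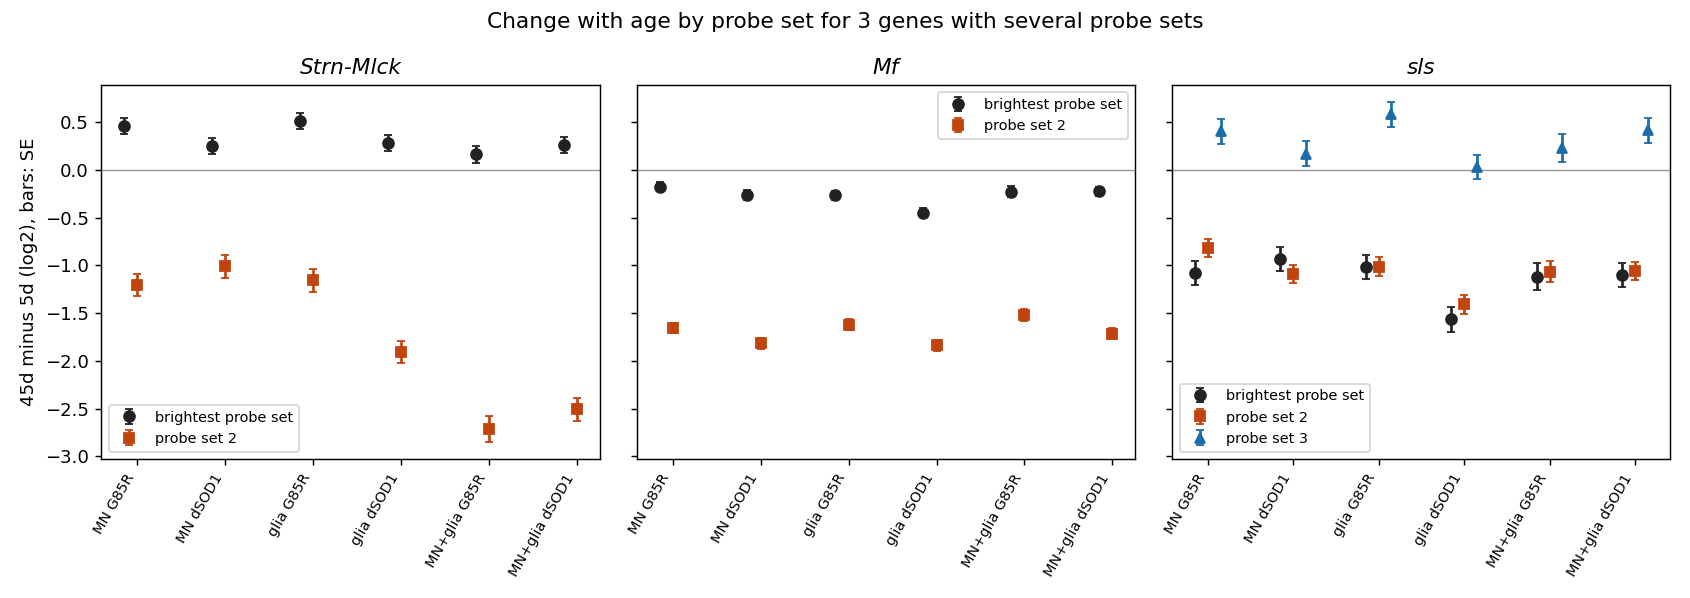
Differences between 45d and 5d (log2, bars are the SE) of the separate single-gene probe sets of Strn-Mlck, Mf and sls in the 6 groups by driver and transgene. The Strn-Mlck probe set with the highest mean over all arrays lies above 0 and the second Strn-Mlck probe set between -2.71 and -1.01.

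Genes that work beside the sarcomere did not all move with it. Across the 6 comparisons between 14.5% and 20% of all probe sets fell and between 16.5% and 27.4% rose, and the counts below stand against these shares. SERCA, the pump that returns calcium to the sarcoplasmic reticulum, fell in all 6 comparisons by between 2.45 and 2.97 on the log2 scale, and between 3 and 5 of the 7 measured genes of calcium coupling fell in each. Itpr alone of these 7 rose, in every group except glia dSOD1 flies, by between 0.18 and 0.37. Of 8 further genes of the sarcomere or the wider actin and myosin machinery, 2 or 3 fell and 3 or 4 rose. Fhos, a formin with a role in thin filament assembly, fell by between 1.34 and 1.73. The largest rises were those of cpb, cpa, Gel or Mlc-c. Zasp67, which fell in MN flies of both transgenes and in MN+glia dSOD1 flies, was dim, at a mean of 4.14 over all 36 arrays. Of 12 genes of muscle attachment, between 4 and 10 rose and at most 1 fell, and Ilk, the integrin-linked kinase of attachment sites, rose by between 0.35 and 0.62 in all 6 comparisons. Of 5 muscle regulators, 2 rose and 1 or 2 fell in each comparison. The myosin chaperone unc-45 rose in all 6, by between 0.65 and 1.18, and among the transcription factors salm, which specifies fibrillar flight muscle, fell in 5 by between 0.67 and 0.77, and vg fell in 4 by between 0.26 and 0.75. Only the probe set with the highest mean over all arrays was read for each gene here, although SERCA and Fhos have 3 single-gene probe sets each and vg has 2.

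Markers of other tissues also moved with age, and their counts stand against the same shares of all probe sets. Between 4 and 6 of 6 testis markers fell and none rose in each comparison, and their summed linear level was 10170 to 14660 in 45d arrays against 16560 to 19730 in 5d arrays. Between 2 and 6 of 6 fat body markers rose and at most 1 fell, with sums of 24870 to 31940 at 45d against 22320 to 26430 at 5d. Of 5 neuron markers none rose and at most 2 fell (491.4 to 1024 at 45d against 577.4 to 1212 at 5d), glia markers rose and fell (8252 to 10000 at 45d against 8457 to 9705 at 5d), and 2 or 3 of 5 gut markers rose and at most 3 fell (51910 to 63700 at 45d against 50290 to 60040 at 5d). The markers VGlut, at a mean of 4.38, and can, at 5.57, were dim, and RMA gives no values at 0. A sum weighs its brightest markers most, such as Gs2, at a mean of 12.72, among the glia markers. It is not the level of a tissue. Each range pools all groups of an age, so differences between drivers widen it. In glia dSOD1 flies the neuron sum was 491.4 to 515.4 at 45d and 577.4 to 612.7 at 5d. In MN dSOD1 flies it was 793.6 to 1024 and 905.7 to 982. The gut sum was 61730 to 63000 at 45d and 57790 to 59080 at 5d in MN dSOD1 flies. In MN+glia G85R flies it was 52710 to 56880 and 57050 to 57260. The part of these shifts in the members' falls was not tested.

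The second question was whether G85R flies differed from dSOD1 flies of the same driver and age. The members differed most in glia flies at 45d, where 8 of 26 were higher with G85R and none was lower, against 6.3% of all probe sets higher and 5.96% lower (limma, and none was lower at an unadjusted p below 0.05). Act88F was 1.98-fold higher, and sls, TpnC4, Act79B, Prm, Mp20, Mlc2 and Mlc1 were higher by smaller amounts. The difference was positive for 24 of the 26 members, with a median of 0.15, against 9562 of all 18769 probe sets and a median of 0.0026. All 3 G85R arrays lay above all 3 dSOD1 arrays for 16 members, against 17.8% of all probe sets.

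Act88F read 9.43, 10.52 and 9.44 in the G85R arrays and 8.77, 8.94 and 8.73 in the dSOD1 arrays, a difference of 0.98 ± 0.19 (SE, limma, adjusted p = 0.00044). The titin-like sls, at 7.87, 8.19 and 7.99 with G85R and 7.41, 7.34 and 7.69 with dSOD1, differed by 0.54 ± 0.13 (adjusted p = 0.0040). TpnC4, at 9.87, 10.09 and 9.77 with G85R and 9.53, 9.47 and 9.61 with dSOD1, differed by 0.37 ± 0.090 (adjusted p = 0.0045). For each of these genes the lowest G85R array was above the highest dSOD1 array. Act79B had the smallest adjusted p of the members, 8.8e-05, with a difference of 0.35 ± 0.059. On the thick filament Prm was higher by 0.27, Mlc2 by 0.22 and Mlc1 by 0.17, and the calponin-like Mp20 by 0.25 (adjusted p between 0.011 and 0.018). Troponin T (up) was 0.23 higher and not called (adjusted p = 0.056), and no Z disc or filament end protein passed the test.

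Array G85R replicate 2 was the highest of its group for Act88F. Without it the difference of Act88F was 0.62, still called, while that of TpnC4 was 0.29 and was not (limma, adjusted p = 0.060). Mp20 also lost its call without that array. Over all arrays left out in turn between 5 and 8 members were called, with 5 without dSOD1 replicate 1, and Act88F, Act79B and sls were called each time. Weighting the arrays by quality gave 16 calls. In the same comparison 3 of 6 fat body markers were lower and 1 higher with G85R (summed level 25450 to 25860 with G85R against 29660 to 31940 with dSOD1). Of 5 glia markers, 1 was higher and 1 lower (8252 to 8420 with G85R against 8468 to 8902 with dSOD1). These counts stand against 6.3% of all probe sets higher and 5.96% lower. No testis marker passed the test (14300 to 14660 with G85R against 12880 to 13450 with dSOD1), nor did a neuron marker (516.5 to 561.6 with G85R against 491.4 to 515.4 with dSOD1) or a gut marker (52630 to 55220 with G85R against 51910 to 54430 with dSOD1). The part of these differences in the members' result was not tested.

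In glia flies at 45d, where 6.3% of all probe sets were higher and 5.96% lower, some genes of the neighbouring lists were called too. With G85R, 2 of the 8 further genes of the sarcomere or the wider actin and myosin machinery and 2 of 7 genes of calcium coupling were higher and none was lower. These were Lmpt, a LIM-domain protein (0.66, adjusted p = 6.5e-08), tn, the TRIM protein thin (0.32, adjusted p = 0.0020), the calcium release channel RyR (0.41, adjusted p = 0.0023) and the calcium channel subunit Ca-alpha1D (0.23, adjusted p = 0.029). No gene was called among 12 of muscle attachment, 5 muscle regulators and 3 of the non-muscle cytoskeleton. Lmpt was also higher with G85R in the other 5 comparisons, by between 0.48 and 0.59. Second probe sets of Strn-Mlck (0.48, adjusted p = 0.0058), Msp300 (0.40, adjusted p = 0.0044) and Mf (0.23, adjusted p = 0.0049) passed the test in glia flies at 45d, where the ones used above did not. In the other comparisons that Mf probe set was also higher with G85R in MN+glia flies at 45d (0.24, adjusted p = 0.0050), that of Strn-Mlck was lower in MN flies at 45d (-0.38, adjusted p = 0.032), and both other sls probe sets were higher in MN flies at 45d (0.49 and 0.56). A further Msp300 probe set, dim at a mean of 5.53, was higher in 4 of the 6 comparisons, by between 0.43 and 0.59.

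**Figure D4:**
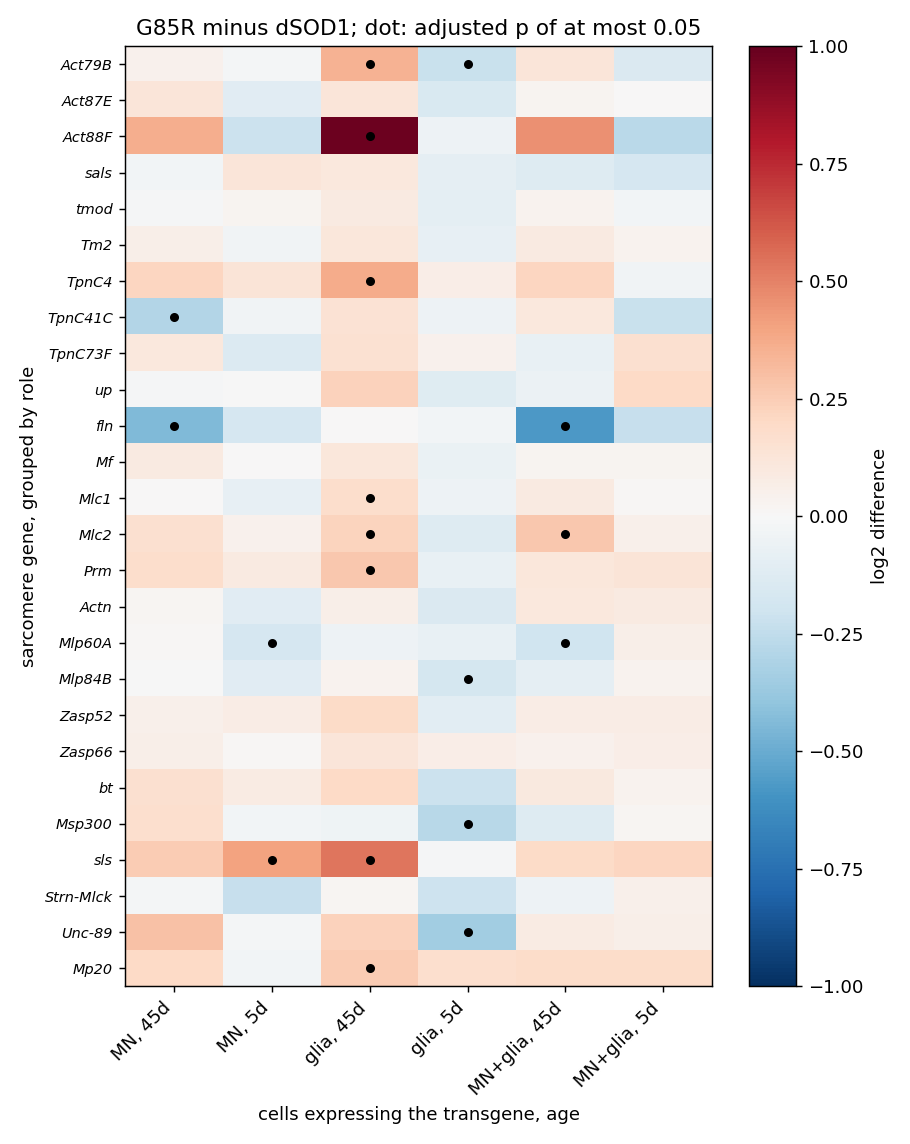
Difference of G85R minus dSOD1 (log2, colour scale) for the 26 measured sarcomere genes in each driver at 45d and 5d, with a dot where limma's adjusted p was at most 0.05. The column of glia flies at 45d holds 8 dots, all positive, and that of MN+glia flies at 5d none.

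In glia flies at 5d, 4 members were lower with G85R and none higher, against 3.72% of all probe sets lower and 3.4% higher (limma, where 1 member was higher at an unadjusted p below 0.05). Unc-89 read 8.88, 9.33 and 9.25 with G85R and 9.41, 9.58 and 9.50 with dSOD1 (-0.34 ± 0.10, adjusted p = 0.034). Msp300 read 10.07, 10.24 and 10.19 with G85R and 10.35, 10.41 and 10.57 with dSOD1 (-0.27 ± 0.082, adjusted p = 0.036). In both genes the G85R arrays were all below the dSOD1 arrays, as in Act79B (-0.23 ± 0.059, adjusted p = 0.016), whereas in Mlp84B (-0.17 ± 0.054, adjusted p = 0.048) the arrays overlapped. None of the 4 was called without glia dSOD1 5d replicate 3 or without glia G85R 5d replicate 1, and 1 was called without glia dSOD1 5d replicate 2. Msp300 and Unc-89 also lost their calls when all probe sets of each gene were averaged. Over the alternatives the Msp300 difference came as near to 0 as -0.0032 (limma, adjusted p up to 0.98), so its fall holds for the probe set used.

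In MN flies, few members differed. At 45d, fln was lower with G85R, at 9.45, 9.34 and 9.35 against 9.84, 9.94 and 9.67 with dSOD1 (-0.44 ± 0.12, limma, adjusted p = 0.013), and so was TpnC41C, at 9.78, 9.78 and 9.68 against 10.01, 10.17 and 9.94 with dSOD1 (-0.29 ± 0.071, adjusted p = 0.0047). These 2 of 26 members stood against 5.9% of all probe sets lower and 6.94% higher, and 6 members were higher at an unadjusted p below 0.05 and none after adjustment. At 5d, sls was higher with G85R, at 9.88, 9.68 and 9.51 against 9.22, 9.42 and 9.24 with dSOD1 (0.40 ± 0.13, adjusted p = 0.042), and Mlp60A lower, at 12.28, 12.34 and 12.32 against 12.48, 12.45 and 12.51 with dSOD1 (-0.16 ± 0.050, adjusted p = 0.031), where 5.6% of all probe sets were higher and 4.73% lower. Neither 45d call was made without MN dSOD1 45d replicate 2, and neither 5d call without dSOD1 replicate 1 or 3 or G85R replicate 1. The call of sls was also lost without G85R 5d replicate 2, and that of Mlp60A without G85R 5d replicate 3.

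In MN+glia flies at 45d, fln was again lower with G85R, at 9.04, 9.17 and 8.52 against 9.42, 9.59 and 9.44 with dSOD1 (-0.58 ± 0.12, limma, adjusted p = 0.0015). Mlp60A was also lower, at 11.96, 11.92 and 12.08 against 12.21, 12.22 and 12.14 with dSOD1 (-0.20 ± 0.050, adjusted p = 0.0086), and Mlc2 higher, at 11.99, 11.85 and 11.80 against 11.65, 11.68 and 11.49 with dSOD1 (0.27 ± 0.064, adjusted p = 0.0047). In that comparison 5% of all probe sets were lower and 3.74% higher. Mlc2 was not called without MN+glia dSOD1 45d replicate 3, and Mlp60A was not called without MN+glia G85R 45d replicate 2. Mlp60A also lost its call when all its probe sets were averaged. With only the arrays of this comparison fitted, fln, Mlp60A and Mlc2 all lost their calls. At 5d no member was called, where 2.93% of all probe sets were higher and 3.58% lower, while 3 members were higher and 2 lower at an unadjusted p below 0.05.

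Act88F was called only in glia flies at 45d, but its intervals elsewhere were wide. At 45d the difference of G85R minus dSOD1 was 0.36 in MN flies, with a 95% confidence interval of -0.028 to 0.747, and 0.46 in MN+glia flies, with one of 0.073 to 0.848.

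The third question was whether the change with age differed between G85R and dSOD1 flies of the same driver. In glia flies it was less negative or more positive with G85R for all 26 members, with a median difference of 0.23, against 8959 of 18769 probe sets and a median of -0.0089. The 3 measured actins, Mlc2 and Unc-89 passed the test of that difference, all positive and 5 in number, against 1.57% of all probe sets with a positive and 1.42% with a negative call, and no member was negative at an unadjusted p below 0.05. The same dSOD1 and G85R arrays enter this test and the comparisons above.

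Act79B had a change with age of -0.94 in glia G85R flies and -1.52 in glia dSOD1 flies, a difference of 0.57 ± 0.084 (SE, limma, adjusted p = 6.0e-05). Act88F had changes of -0.15 with G85R and -1.19 with dSOD1 (1.04 ± 0.27, adjusted p = 0.030), and Unc-89 of -0.50 with G85R and -1.07 with dSOD1 (0.57 ± 0.14, adjusted p = 0.024). In Act79B and Unc-89 the fall was thus smaller with G85R, while Act88F fell with dSOD1 and had no called change with G85R. Mlc2 changed by 0.07 with G85R and -0.28 with dSOD1 (0.35 ± 0.091, adjusted p = 0.028), and Act87E by -0.44 with G85R and -0.72 with dSOD1 (0.27 ± 0.077, adjusted p = 0.049). The call of Act87E was lost in 14 of 20 alternatives, including 10 of the 12 single arrays left out, with adjusted p up to 0.17. Unc-89 in glia flies read 8.51, 8.67 and 8.78 with G85R and 8.33, 8.54 and 8.40 with dSOD1 at 45d, so that its groups overlapped at 45d and not at 5d. Leaving out 1 array gave between 1 and 7 calls, with 1 without dSOD1 5d replicate 2 or G85R 5d replicate 1, 2 without dSOD1 5d replicate 3, dSOD1 45d replicate 1 or 3 or G85R 45d replicate 2 or 3, and 3 without dSOD1 5d replicate 1. Act79B was called in all of these fits. With a minimum mean or an eBayes trend 9 members were called, with array weights 12, and with the glia arrays fitted alone 3.

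**Figure D5:**
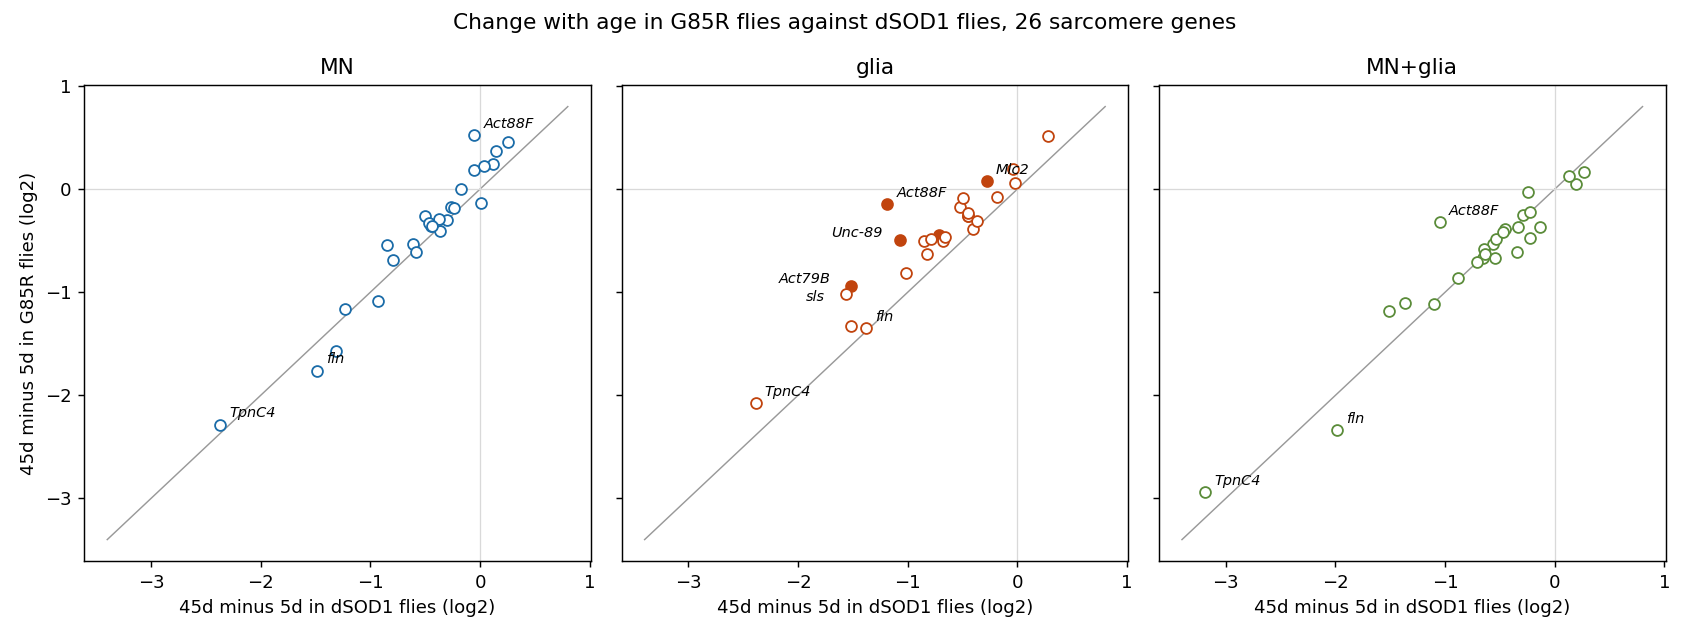
Difference of 45d minus 5d (log2) in G85R flies, vertical axis, against that in dSOD1 flies, horizontal axis, one point per sarcomere gene and one panel per driver, with filled points where limma called the difference between the 2 changes. In glia flies all 26 points lie above the line of equal change, against 19 in MN flies and 14 in MN+glia flies.

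In MN and MN+glia flies no member was called in this test. In MN flies 1.02% of all probe sets were called positive and 1.12% negative, and 6 members were positive and 1 negative at an unadjusted p below 0.05. In MN+glia flies the shares were 0.607% and 0.852%, and 4 members were positive and 3 negative at an unadjusted p. These shares are of calls at an adjusted p and cannot be set against the unadjusted counts. The difference for Act88F was 0.58 (adjusted p = 0.31) in MN flies and 0.73 (adjusted p = 0.23) in MN+glia flies.

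The last question was whether the difference of G85R minus dSOD1 itself differed between drivers. At 45d it was more positive in glia than in MN flies for TpnC41C (0.44 ± 0.10, limma, adjusted p = 0.013) and Act79B (0.31 ± 0.084, adjusted p = 0.049), against 0.852% of all probe sets called positive and 0.986% called negative. TpnC41C also differed between MN+glia and MN flies (0.40 ± 0.10, adjusted p = 0.030), where 0.693% of all probe sets were called positive and 1.16% negative. Between MN+glia and glia flies at 45d no member was called, against 0.666% of all probe sets in either direction, 5 were lower in MN+glia flies at an unadjusted p below 0.05, and the difference was negative for 24 of 26 with a median of -0.11, against 9976 of 18769 probe sets and a median of -0.0091. At 5d no member was called in any of the 3 driver comparisons, where 0.884%, 1.02% and 0.144% of all probe sets were called, and between 4 and 6 members passed an unadjusted p of 0.05 in each. Act79B was not called in the comparison of glia with MN flies when any 1 of the 12 arrays was left out, and TpnC41C only without MN dSOD1 45d replicate 2. Between MN+glia and MN flies TpnC41C was not called without MN dSOD1 replicate 2, MN G85R replicate 3, MN+glia G85R replicate 1 or any MN+glia dSOD1 array of 45d.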

How the data were processed

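RNA of whole adult male flies was measured on Affymetrix Drosophila arrays, 1 array per pool of 40 flies, and groups were taken from the sample titles. The deposited values are log2 intensities that the authors computed by RMA (background correction, quantile normalization between arrays and 1 summary per probe set). The submitters' processing notes name RMA and limma without versions. Nothing was normalized further, since RMA had already normalized between arrays. Array medians ran from 6.41 to 6.55, a closeness that quantile normalization itself brings about and that is no separate check. The number of arrays limits the precision.

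Probe sets were named through GEO's platform annotation with symbols updated by gene identifier: 13647 probe sets named 1 gene, 402 several and 4720 none, and 183 of 18952 were control probe sets and were left out. With R 4.3.3 and limma 3.58.1, 1 mean per group was fitted to 35 arrays (23 residual and 5.835 prior degrees of freedom) for 21 comparisons, with Benjamini-Hochberg adjustment over 18769 probe sets and a threshold of 0.05. The array left out, MN+glia G85R 5d replicate 2, had degraded RNA by its 3′ and 5′ control probe sets: the study's methods drop an array for degradation but name another 5d group. The fit was tested on simulated data. The members, the other lists and their tests were chosen with earlier results of these data known. Values of every array are given for the largest rises and falls of each comparison and for the actins, light chains, tropomyosin, troponin T, TpnC4 and TpnC41C, and of other lists at most 2 genes each way are named. Alternatives were all 36 arrays, a further quantile normalization, a minimum mean of 6, an eBayes trend, array weights, a replicate block, fits of the arrays compared alone, the mean of all probe sets of a gene and leaving out each array.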

Additional observations from a re-analysis of the deposited data

Results flagged for a closer look

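In glia flies the change with age differed between G85R and dSOD1 flies, by limma's test of the difference itself, for Act88F (1.04, adjusted p = 0.030), Act79B (0.57, adjusted p = 6.0e-05), Unc-89 (0.57, adjusted p = 0.024), Mlc2 (0.35, adjusted p = 0.028) and Act87E (0.27, adjusted p = 0.049). Act79B kept its call in all 20 alternatives, while Act87E lost it in 14, Act88F in 8, Unc-89 in 8 and Mlc2 in 6. These differences are G85R minus dSOD1 on the log2 scale, and all 26 members had a positive one in glia flies.

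At 45d the difference of G85R minus dSOD1 was more positive in glia than in MN flies for TpnC41C (0.44, adjusted p = 0.013) and Act79B (0.31, adjusted p = 0.049); the call of Act79B was lost in 14 of 20 alternatives. It was also more positive in MN+glia than in MN flies for TpnC41C (0.40, adjusted p = 0.030). The calls of TpnC41C were lost in 1 of 20 alternatives for glia minus MN and in 7 of 20 for MN+glia minus MN. At 45d the 3 TpnC41C arrays of G85R lay below those of dSOD1 in MN flies, and both comparisons share these MN arrays.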

How the results depend on the processing

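The counts of members that fell with age stayed within 1.5 times in every alternative, between 17 and 23. Smaller counts moved. With all 36 arrays, MN flies at 5d had 0 members higher with G85R (1 in the fit of 35), MN+glia flies at 5d had 1 higher and 2 lower (0 and 0), the age by transgene test in MN+glia flies 1 positive and 1 negative, and glia minus MN at 45d 1 positive (2). A further quantile normalization gave 1 lower in glia flies at 5d (4), 3 that rose with age in MN dSOD1 flies (1) and 1 positive age by transgene call in MN+glia flies. A minimum mean of 6 gave 2 lower in MN flies at 5d (1), and this filter and the eBayes trend both gave 2 higher in MN flies at 45d (0), 2 that rose with age in glia G85R and in MN+glia dSOD1 flies (1 each), and 9 positive (5) in glia and 1 negative (0) in MN+glia flies for age by transgene. Array weights gave 0 higher in MN flies at 5d, 3 higher in MN flies at 45d, 16 higher in glia flies at 45d (8), 1 higher in MN+glia flies at 5d, 2 that rose with age in glia G85R and in MN+glia dSOD1 flies, 12 positive in glia and 1 negative in MN+glia flies for age by transgene, 4 positive for glia minus MN and 1 negative for MN+glia minus MN at 45d. Fits of the arrays compared alone gave 0 higher and 0 lower in MN flies at 5d, 1 higher and 1 lower (0 and 2) in MN flies at 45d, 0 lower in glia flies at 5d, 0 lower in MN+glia flies at 45d (2), 2 that rose with age in glia G85R flies, 3 positive in glia flies for age by transgene and 0 for MN+glia minus MN at 45d (1). The mean of all probe sets of a gene gave 3 higher in MN flies at 45d, 2 lower in glia flies at 5d, 2 higher in MN+glia flies at 5d, 2 higher and 1 lower in MN+glia flies at 45d (1 and 2), 0 that rose with age in MN dSOD1, glia dSOD1 and glia G85R flies, 8 positive in glia and 1 negative in MN+glia flies for age by transgene, and 1 positive for MN+glia minus MN at 5d. It alone turned directions: Mlp60A was 0.085 in MN dSOD1, 0.0031 in glia G85R and 0.25 in MN+glia dSOD1 flies, and Strn-Mlck was -0.28 in MN dSOD1, -0.33 in MN G85R, -0.57 in glia dSOD1, -0.28 in glia G85R and -0.74 in MN+glia dSOD1 flies. The cause of these shifts was not tested.

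Same-numbered replicates did not pair: in none of 12 comparisons checked did every pair correlate above 0.1 (correlations between -0.302 and 0.396). With the replicate number as a block, 1 member was higher in MN flies at 45d (0) and 1 positive for glia minus MN at 45d (2), and the other counts stayed within 1.5 times. The block also ended the calls of Act87E for age by transgene in glia flies, Act79B for glia minus MN at 45d and Mlp84B for G85R minus dSOD1 in glia flies at 5d.

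Leaving out 1 array in turn gave 0 to 1 higher and 0 to 1 lower in MN flies at 5d, 0 to 1 higher and 0 to 2 lower in MN flies at 45d, 0 to 4 lower in glia flies at 5d, 5 to 8 higher in glia flies at 45d, 0 to 1 higher and 1 to 2 lower in MN+glia flies at 45d, 0 to 2 that rose with age in MN dSOD1 and in MN+glia dSOD1 flies, 0 to 1 positive in MN, 1 to 7 positive in glia and 0 to 1 negative in MN+glia flies for age by transgene, 0 to 1 positive for glia minus MN and for MN+glia minus MN, and 0 to 1 negative for MN+glia minus glia, all at 45d. Of 2198 values of single called members under an alternative, 2047 kept their direction and call, 143 kept the direction only and 8 were turned round.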
